A study of Homo sapiens with 8 samples.

Results

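The keratin genes described here are KRT8, KRT18, KRT19, KRT7, KRT20, KRT23, KRT80, KRT13 and KRT14, named from the keratins known in simple, glandular and stratified epithelium. The set was chosen with earlier results of these data known, so its counts of calls are not independent support. They are 9 of the 16829 genes in the deposited tables and 9 of the 47 keratin genes counted there. They were measured in 8 RNA-seq libraries of human colorectal cancer cell lines, 2 in each of 4 groups. RKO cells given CYP1B1 by lentivirus were compared with RKO control cells. SW480 cells carrying a hairpin that targets CYP1B1 (shCYP1B1) were compared with SW480 cells carrying a non-targeting hairpin (shNT). CYP1B1 encodes a cytochrome P450 that oxidises steroids and polycyclic hydrocarbons, and the series asked how raising or lowering it alters transcription in proliferating cells. The labels name the control cells of both lines as having normal CYP1B1, all cells grew in DMEM with serum, and the virus treatment is described in the same words for every group. The series holds 1 hairpin against CYP1B1, and the labels do not say whether pools or single clones were grown. Nor do they say whether the 2 replicates of a group were grown separately, so each p-value reflects the spread of these libraries alone, and that spread may be technical.

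Keratins are the intermediate filament proteins of epithelial cells. A filament is built from pairs of 1 type I (acidic) and 1 type II (basic to neutral) keratin, and an unpaired keratin protein is generally unstable. Simple epithelia such as the colon lining use KRT8 with KRT18, KRT19 and KRT20, whereas the basal layer of stratified epithelium uses KRT5 with KRT14 and the upper layers of non-cornifying epithelium use KRT4 with KRT13. Among the genes described, KRT8, KRT7 and KRT80 are type II and KRT18, KRT19, KRT20, KRT23, KRT13 and KRT14 are type I.

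In GENCODE release 29 on GRCh38, the type II genes lie in 1 cluster on chromosome 12 and the type I genes, apart from KRT18, in 1 cluster on chromosome 17, with 27 keratin genes in each. KRT80 spans chr12:52168996-52192000 on the minus strand and KRT7 spans chr12:52232520-52252186 on the plus strand. KRT8, at chr12:52897187-52949954 on the minus strand, and KRT18, at chr12:52948871-52952901 on the plus strand, meet head to head and overlap by 1084 bases. KRT7 also overlaps its antisense gene KRT7-AS, the pseudogene KRT87P and, on the same strand, KRT86. On the minus strand of chromosome 17, KRT20 spans chr17:40875941-40885227, KRT23 chr17:40922696-40937634, KRT13 chr17:41500981-41505705, KRT19 chr17:41523617-41528308 and KRT14 chr17:41582279-41586921. Because the use of strand in counting is not given in the sources used here, reads from the overlap of KRT8 and KRT18, or from KRT7 and its neighbours, cannot be told apart between the genes.

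Keratin genes resemble each other closely where the coding sequence enters the helical rod of the protein, and this bears on how reads can be assigned. The 60 coding bases below are from that stretch of each type I gene described and of KRT16, a neighbour of KRT14, written 5′ to 3′ on the coding strand from GENCODE transcripts on GRCh38. Capitals mark bases that differ from KRT14. They lie at chr12:52949410-52949469 (KRT18, plus strand), and on the minus strand at chr17:41527952-41528011 (KRT19), chr17:40884920-40884979 (KRT20), chr17:40936332-40936391 (KRT23), chr17:41505183-41505242 (KRT13), chr17:41586434-41586493 (KRT14) and chr17:41612282-41612341 (KRT16).
KRT18: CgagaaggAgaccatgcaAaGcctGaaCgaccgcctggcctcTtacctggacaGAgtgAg
KRT19: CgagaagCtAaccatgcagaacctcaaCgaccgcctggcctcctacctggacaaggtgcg
KRT20: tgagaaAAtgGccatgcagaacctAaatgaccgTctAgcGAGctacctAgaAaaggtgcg
KRT23: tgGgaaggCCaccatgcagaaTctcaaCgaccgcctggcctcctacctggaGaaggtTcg
KRT13: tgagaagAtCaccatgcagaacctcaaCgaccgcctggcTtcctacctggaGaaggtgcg
KRT14: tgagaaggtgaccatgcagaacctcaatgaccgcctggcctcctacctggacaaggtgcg
KRT16: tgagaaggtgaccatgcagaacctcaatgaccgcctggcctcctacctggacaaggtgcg
KRT18 shares 50 of the 60 bases with KRT14 (83.3%), KRT20 49, KRT23 53, KRT13 55 and KRT19 56. KRT16 shares all 60. The window was picked within the longest coding run shared by KRT14 and KRT16, as the most alike over these genes. The identities are therefore high by choice.

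Over whole coding transcripts, the share of 50-base windows also found in the transcript of another gene separates the members. It was 28.9% for KRT18, whose windows recur in 43 other genes, mostly processed pseudogenes with KRT18P11 first, and 23.8% for KRT14, with KRT16 first at 11.2%. It was 1.88% for KRT8, 1.79% for KRT19, 1.03% for KRT13, 0.997% for KRT7, 0.416% for KRT80 and 0 for KRT20 and KRT23. Counts of KRT18 and KRT14 are therefore uncertain to the extent that reads were split among copies, while those of KRT20 and KRT23 carry no such overlap at this length.

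The libraries held between 31550173 and 34921085 counts. CYP1B1 itself stood at 437 and 519 CPM (counts relative to library size, scaled by TMM) in RKO CYP1B1 cells, against 0.686 and 0.701 in RKO control cells. It stood at 0.367 and 0.301 CPM in SW480 shCYP1B1 cells, against 1.44 and 2.20 in SW480 shNT cells, so the targeted gene followed its labels in both lines. Of 9 colon epithelial markers counted, 6 were under 1 CPM in each RKO library and 3 in each SW480 library; CEACAM5 and LGALS4 were under 1 CPM on average in all 4 groups, whereas CDX2, a transcription factor of the intestine, averaged at least 23.9 CPM in every group. The labelled colon origin thus rested in RKO on a few markers. Of 16 stromal, endothelial and immune markers, PTPRC, PECAM1, LUM, CDH5, DCN and HBB averaged under 1 CPM in every group. The summed level of the 16 was 704 and 678 CPM in RKO CYP1B1 cells and 791 and 702 CPM in RKO control cells, mostly CD68, a lysosomal protein gene that averaged 673 CPM in RKO CYP1B1 cells and 732 CPM in RKO control cells. It was 72.1 and 75.5 CPM in SW480 shCYP1B1 cells and 41.2 and 43.1 CPM in SW480 shNT cells, and 1 of the 10 tested (10%) was higher in RKO CYP1B1 cells and 4 (40%) in SW480 shCYP1B1 cells, none lower, where 27.6% of all genes tested were called in RKO and 50.6% in SW480. The 2 RKO CYP1B1 libraries differed from each other more than any other pair, with a chi-square per gene of 36.4, compared with 4.56 to 5.75 for the other groups.

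In the summed transcript of the 9 genes, the lines differed far more than the manipulated cells differed from their controls. This did not hold for each gene. In bulk RNA, fewer cells expressing a keratin and less of its RNA per cell cannot be told apart. The 9 genes together took 0.0290% and 0.0322% of all counts in RKO CYP1B1 cells and 0.0269% and 0.0255% in RKO control cells. They took 0.578% and 0.582% in SW480 shCYP1B1 cells and 0.549% and 0.530% in SW480 shNT cells. On the FPKM scale (fragments divided by gene length and library total), which allows levels of different genes to be compared, KRT18 was the most abundant keratin in all 8 libraries.

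**Figure D1:**
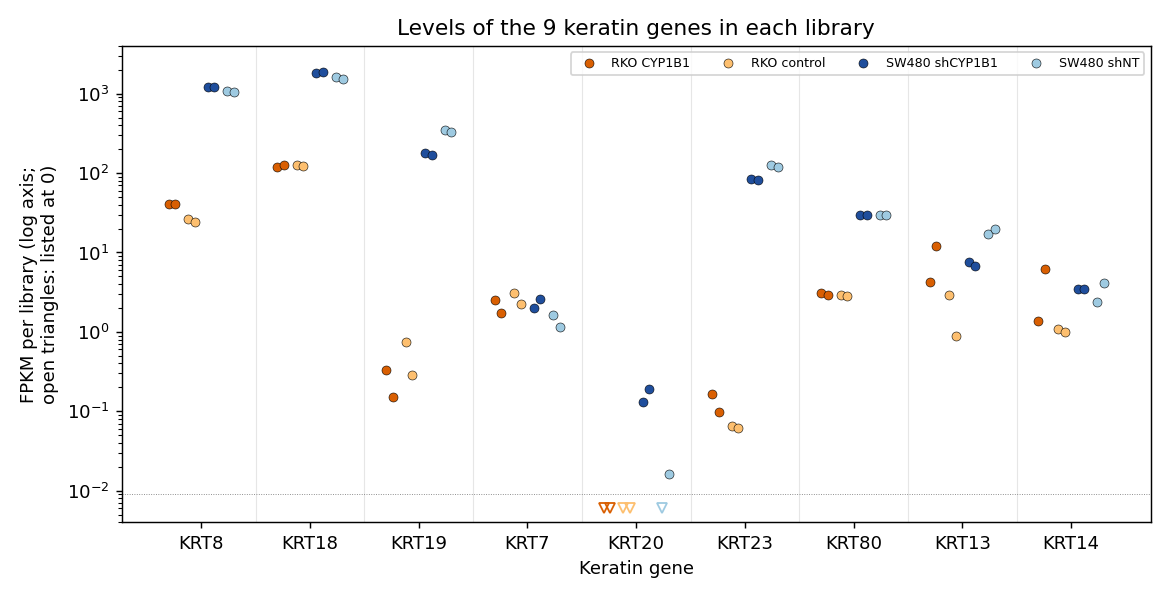
FPKM of each of the 9 keratin genes (log axis), with 1 point per library and the groups RKO CYP1B1, RKO control, SW480 shCYP1B1 and SW480 shNT from left to right within each gene; open triangles mark libraries listed at 0. KRT8, KRT18, KRT19, KRT23 and KRT80 lie higher in all 4 SW480 libraries than in all 4 RKO libraries, while the libraries of KRT7 and KRT14 from the 2 lines mix.

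With the control cells of the lines set against each other, 7 of the 8 tested members were higher and 1 was lower in SW480 shNT cells than in RKO control cells (edgeR's quasi-likelihood test, Benjamini-Hochberg adjusted p under 0.05). Over all 14157 genes tested, 76.8% were called between the lines, 41.2% higher and 35.6% lower in SW480. KRT20 had too few counts to be tested. The median log2 difference of the 8 members was 3.56, beside 0.08 over all genes. KRT23 differed by 10.93 on the log2 scale (SE 0.15; 6.86 with limma on log2(FPKM + 1), against 5 and 5 counts in RKO control cells), KRT19 by 9.40 (SE 0.22), KRT8 by 5.43 (SE 0.08), KRT18 by 3.71 (SE 0.07), KRT80 by 3.40 (SE 0.08), KRT13 by 3.32 (SE 0.49) and KRT14 by 1.67 (SE 0.56). KRT7 was the member lower in SW480 shNT cells, by -0.89 (SE 0.29, adjusted p = 0.0143 by edgeR). The KRT7 call was lost without RKO control replicate 1 (-0.63, adjusted p = 0.132) or SW480 shNT replicate 2 (-0.65, adjusted p = 0.120). The KRT14 call was lost without either RKO control library (adjusted p = 0.0773 and 0.102) or without SW480 shNT replicate 2 (adjusted p = 0.145), and with limma on log2(FPKM + 1) with or without the filter on low values (adjusted p = 0.0736 and 0.128); it passed under 12 of 17 alternatives. Since each line is 1 cell line, these are differences between RKO and SW480 cultures and not between kinds of tumour.

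In RKO, 3 of the 8 tested members were higher in CYP1B1 cells than in control cells, namely KRT8, KRT13 and KRT14, and none passed the test in the other direction. Over all genes, 27.6% were called, 13.8% higher and 13.8% lower. The median log2 fold change of the 8 members was 0.40, beside 0 over all genes. In SW480, 3 members were higher in shCYP1B1 cells (KRT8, KRT18 and KRT7) and 3 were lower (KRT19, KRT23 and KRT13), with a median of 0.10 beside -0.00 over all genes. Over all genes, 50.6% were called in SW480, 25.3% in each direction.

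**Figure D2:**
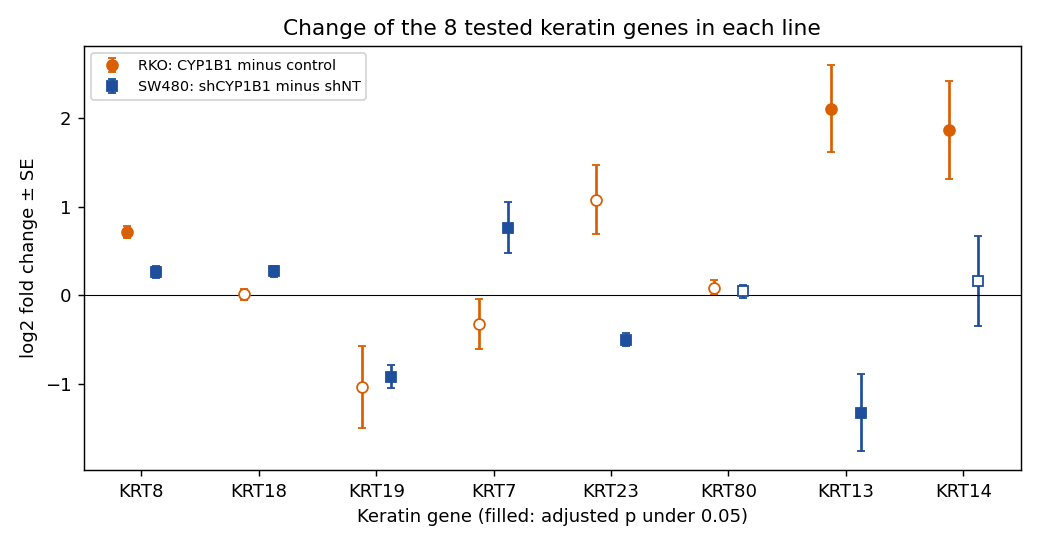
Log2 fold change with its standard error of the 8 tested keratin genes, as RKO CYP1B1 minus control (circles) and SW480 shCYP1B1 minus shNT (squares); filled symbols have an edgeR adjusted p under 0.05. KRT8 lies above 0 in both lines, at 0.72 and 0.26, KRT13 lies on opposite sides, at 2.11 and -1.32, and KRT80 lies near 0 in both.

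KRT8, the main type II keratin of simple epithelium, was higher in the manipulated cells of both lines. Its level was 40.9 and 41.1 FPKM in RKO CYP1B1 cells and 26.6 and 23.9 FPKM in RKO control cells. The RKO groups did not overlap, and the log2 fold change was 0.72 (SE 0.07, edgeR adjusted p = 8.81e-05). It passed the test under all 18 alternative settings, between 0.64 and 0.81. KRT8 was at 1227 and 1224 FPKM in SW480 shCYP1B1 cells and at 1067 and 1039 FPKM in SW480 shNT cells. These groups did not overlap either, and the smaller log2 fold change of 0.26 (SE 0.07, edgeR adjusted p = 0.00621) lost its call without SW480 shNT replicate 2 (0.24, adjusted p = 0.0619).

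KRT18, the type I partner of KRT8, was unlike it in RKO. It was at 119 and 128 FPKM in RKO CYP1B1 cells and at 125 and 124 FPKM in RKO control cells, with both control values between those of the CYP1B1 cells. The log2 fold change of 0.01 (SE 0.06) did not pass the test (edgeR adjusted p = 0.955), and its sign turned under several settings. In SW480 the level was 1827 and 1866 FPKM in shCYP1B1 cells and 1611 and 1548 FPKM in shNT cells, without overlap. The log2 fold change was 0.27 (SE 0.06, edgeR adjusted p = 0.00327), close to that of KRT8, and it too lost its call without SW480 shNT replicate 2 (0.24, adjusted p = 0.0554).

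The ratio of KRT8 to KRT18 on the FPKM scale followed from these values. It was 0.343 and 0.321 in RKO CYP1B1 cells and 0.213 and 0.193 in RKO control cells, so that KRT18 transcript exceeded KRT8 transcript in every RKO library. It was 0.672 and 0.656 in SW480 shCYP1B1 cells and 0.663 and 0.671 in SW480 shNT cells, where the groups overlapped. Reads from the 1084 bases shared by the genes, and KRT18 reads matching its pseudogenes, enter these ratios to an extent that was not tested.

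KRT19, a short type I keratin of glandular and ductal epithelium that lacks the usual tail domain, was a major keratin of SW480 and close to the detection limit in RKO. In SW480 it was at 179 and 167 FPKM in shCYP1B1 cells and at 349 and 328 FPKM in shNT cells. The groups were far apart, and KRT19 fell by 0.92 on the log2 scale in shCYP1B1 cells (SE 0.13, edgeR adjusted p = 1.21e-04). The call held with any single library left out and was lost with DESeq2 (-0.90, adjusted p = 0.0984) and with limma on log2(FPKM + 0.1) (-0.96, adjusted p = 0.0593). RKO CYP1B1 cells held 16 and 7 counts of KRT19 and RKO control cells 33 and 13 counts. These groups overlapped, and the log2 fold change of -1.04 (SE 0.46) did not pass the test (edgeR adjusted p = 0.119), although it did without RKO control replicate 2 (-1.59, adjusted p = 0.0250) or RKO CYP1B1 replicate 1 (-1.71, adjusted p = 0.0194).

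KRT7, a type II keratin of ductal epithelium that is usually sparse in colon carcinoma, was low in every library. It was at 2.49 and 1.72 FPKM in RKO CYP1B1 cells and at 3.11 and 2.25 FPKM in RKO control cells, which overlapped (log2 fold change -0.33, SE 0.28, edgeR adjusted p = 0.427). It was at 1.98 and 2.61 FPKM in SW480 shCYP1B1 cells and at 1.66 and 1.14 FPKM in SW480 shNT cells. The SW480 groups lay side by side without overlap, with a log2 fold change of 0.76 (SE 0.29, edgeR adjusted p = 0.0461). That call sat at the threshold: it passed under 9 of 18 alternatives, and it was lost without SW480 shNT replicate 1 (1.06, adjusted p = 0.0503), shNT replicate 2 (0.52, adjusted p = 0.270), shCYP1B1 replicate 1 (0.96, adjusted p = 0.0563), shCYP1B1 replicate 2 (0.55, adjusted p = 0.257) or RKO control replicate 1 (0.76, adjusted p = 0.0554). KRT86, which overlaps KRT7 on the same strand, moved the same way in SW480, as described with the other keratins.

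KRT20, a type I keratin of differentiated intestinal epithelium and a marker read together with KRT7 in pathology, was almost absent. It had 0 counts in all 4 RKO libraries, which at these depths allows up to 0.0951 CPM taken as 3 counts of a library, or up to 0.117 CPM by the exact two-sided 95% Poisson limit, counting error only. It had 8 and 12 counts in SW480 shCYP1B1 cells and 0 and 1 counts in SW480 shNT cells. The ratio of the 20 counts to the 1 count was 20.3 after division by library totals, with an exact 95% counting interval from 3.25 to 843; that interval covers counting error in these libraries only, and no test between groups was made because the gene did not pass the low-count filter.

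KRT23, a type I keratin found in colon carcinoma cells, was close to the detection limit in RKO. In SW480 it was at 85.0 and 82.7 FPKM in shCYP1B1 cells and at 125 and 120 FPKM in shNT cells. The groups did not overlap, and KRT23 fell by 0.50 on the log2 scale in shCYP1B1 cells (SE 0.07, edgeR adjusted p = 1.97e-04), a call that held under all 18 alternatives. RKO CYP1B1 cells held 14 and 8 counts and RKO control cells 5 and 5 counts. The RKO counts did not overlap, but the log2 fold change of 1.08 (SE 0.39) did not pass the test (edgeR adjusted p = 0.108). It passed under 1 of 17 alternatives, limma on log2(FPKM + 0.1) (0.49, adjusted p = 0.0396), and was as small as 0.0903 with a pseudocount of 1. The ratio of the summed counts, 2.11, had a counting interval from 0.958 to 4.99.

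KRT80, a type II keratin that appears with desmosomes in differentiating epithelial cells, had no called change in either line. It was at 3.13 and 2.88 FPKM in RKO CYP1B1 cells and at 2.93 and 2.81 FPKM in RKO control cells, with a log2 fold change of 0.08 (SE 0.09, edgeR adjusted p = 0.508). It was at 29.3 and 29.6 FPKM in SW480 shCYP1B1 cells and at 29.5 and 29.4 FPKM in SW480 shNT cells, with a log2 fold change of 0.04 (SE 0.07, edgeR adjusted p = 0.637). Both pairs of groups overlapped, and KRT80 passed the test in neither line under any of the 18 alternatives. With 2 libraries a group, a change must exceed its standard error well to be called. Changes of KRT80 somewhat larger than these standard errors could therefore also be missed.

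KRT13, the type I keratin of the upper layers of non-cornifying stratified epithelium, moved in opposite directions in the 2 lines. It was at 4.28 and 12.03 FPKM in RKO CYP1B1 cells and at 2.94 and 0.89997 FPKM in RKO control cells. The RKO groups did not overlap but spread widely, and the log2 fold change was 2.11 (SE 0.49, edgeR adjusted p = 0.00843). It was 1.18 without RKO CYP1B1 replicate 2 and 3.20 without RKO control replicate 1, and the call was lost without RKO control replicate 2 (1.496, adjusted p = 0.0964), with the RKO libraries alone (adjusted p = 0.0512) and with limma on log2(FPKM + 1) without a filter (adjusted p = 0.0803), passing under 15 of 18 alternatives. In SW480, KRT13 was at 7.68 and 6.67 FPKM in shCYP1B1 cells and at 17.1 and 20.0 FPKM in shNT cells. These groups were well apart, and KRT13 fell by 1.32 on the log2 scale (SE 0.43, edgeR adjusted p = 0.0241). Without any one of the 4 SW480 libraries the log2 fold change stayed between -1.43 and -1.20 but did not pass (adjusted p = 0.0754 without shNT replicate 1, 0.135 without shNT replicate 2, 0.104 without shCYP1B1 replicate 1 and 0.153 without shCYP1B1 replicate 2), and neither DESeq2 (adjusted p = 0.132) nor limma on log2(FPKM + 0.1) (adjusted p = 0.0807) or on log2(FPKM + 1) without a filter (adjusted p = 0.0922) called it. It passed under 11 of 18 alternatives.

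KRT14, the type I keratin of basal keratinocytes, had an RKO call that leaned on 1 library. It was at 1.35 and 6.16 FPKM in RKO CYP1B1 cells and at 1.08 and 0.998 FPKM in RKO control cells. Replicate 2 of the CYP1B1 cells stood far above the other 3 RKO libraries. The log2 fold change was 1.86 (SE 0.56, edgeR adjusted p = 0.0278), and it was 0.39 without that library (adjusted p = 0.463). The call was also lost without either RKO control library (1.94, adjusted p = 0.136; 1.82, adjusted p = 0.175) or either SW480 shCYP1B1 library (adjusted p = 0.0565 and 0.0568), with the RKO libraries alone (adjusted p = 0.0823) and in each limma fit (adjusted p between 0.124 and 0.246). It passed under 9 of 18 alternatives. In SW480 it was at 3.52 and 3.49 FPKM in shCYP1B1 cells and at 2.38 and 4.08 FPKM in shNT cells, where the shNT values lay on both sides of the shCYP1B1 values (log2 fold change 0.16, SE 0.51, edgeR adjusted p = 0.811).

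Part of the KRT14 count may not be separable from KRT16, depending on how reads that match both genes were counted, which is not given. Their longest shared coding run is 158 bases, at chr17:41586368-41586525 on the minus strand in exon 1 of the 8 exons of KRT14, coding bases 310 to 467. It is printed because a read within it matches both genes.
KRT14 and KRT16: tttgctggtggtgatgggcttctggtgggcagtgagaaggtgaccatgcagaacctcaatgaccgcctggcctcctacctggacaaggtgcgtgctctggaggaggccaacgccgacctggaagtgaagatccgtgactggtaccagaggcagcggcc
KRT16, a type I keratin of stressed and wounded epidermis, showed the same split between the RKO CYP1B1 libraries, with 25 counts in replicate 1 and 166 in replicate 2, against 35 and 25 counts in RKO control cells.

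The gap between the 2 RKO CYP1B1 libraries was also seen in many but not all other keratins of stratified epithelium. Of the 34 keratins tested, replicate 2 exceeded replicate 1 by over 1 on the log2 CPM scale in 12 and was lower by over 1 in 2, with 20 between. Replicate 2 exceeded replicate 1 by 1.49 for KRT13, a gap that 1.10% of all genes surpassed, and by 2.16 for KRT14, which 0.283% surpassed. It exceeded it by 3.10 for KRT1, 2.69 for KRT16, 2.28 for KRT6B, 2.18 for KRT6C, 2.00 for KRT76 and 1.35 for KRT6A, keratins of epidermis and oral mucosa that are named after their values were seen. None of these 6 passed the RKO test (adjusted p between 0.0554 and 0.199 by edgeR). The gap was smaller for KRT5, at 0.61, and it ran the other way for KRT10, at -0.39, and for KRT78, at -0.98 from 2 and 0 counts. For KRT8 and KRT18 the gaps were 0.01 and 0.11. Among RKO control libraries, replicate 2 was lower than replicate 1 by -1.69 for KRT13, -2.39 for KRT1 and -4.22 for KRT76. In SW480 shNT cells, replicate 2 exceeded replicate 1 by 0.76 for KRT14, 1.46 for KRT16 and 1.13 for KRT6A.

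**Figure D3:**
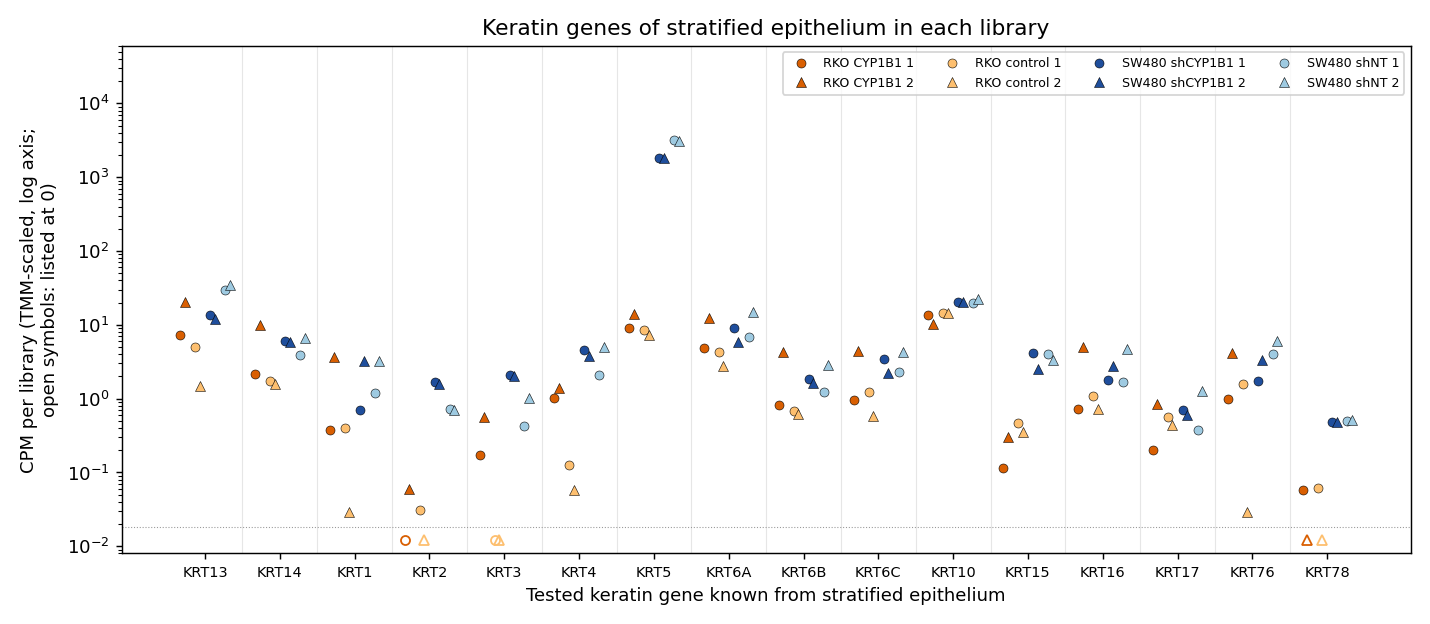
TMM-scaled CPM (log axis) of 16 tested keratin genes known from stratified epithelium, a set drawn up after their values were seen, in each library, with circles for replicate 1, triangles for replicate 2 and open symbols for libraries listed at 0. RKO CYP1B1 replicate 2 is the highest RKO library for 13 of the 16 genes, and not for KRT10, KRT15 and KRT78.

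Other genes of squamous differentiation were set beside these keratins. Of 20 such genes counted, 14 could be tested; none passed in RKO, beside 27.6% of all genes, and SPRR2D alone (7.14%) passed in SW480, beside 50.6% of all genes. Its level was higher in shCYP1B1 cells by 1.89 on the log2 scale (edgeR adjusted p = 0.0192), a call lost without SW480 shNT replicate 1, shNT replicate 2 or shCYP1B1 replicate 1 (adjusted p up to 0.118). Their summed level was 9.78 and 13.9 CPM in RKO CYP1B1 cells and 8.44 and 6.81 CPM in RKO control cells, with RKO CYP1B1 replicate 2 again the highest RKO library. It was 29.7 and 23.7 CPM in SW480 shCYP1B1 cells and 23.4 and 25.7 CPM in SW480 shNT cells. FLG, KLK5, SERPINB3, SERPINB4 and CRCT1 averaged under 0.1 CPM in every group, and 1 to 4 of the 20 genes were listed at 0 in each library. The part of such transcripts in the KRT13 and KRT14 results was not tested.

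The difference between the lines in their response was tested directly, as the CYP1B1-high minus CYP1B1-low change in RKO minus that in SW480 (shNT minus shCYP1B1). The CYP1B1-high cells were unlike, with CYP1B1 at 437 and 519 CPM in RKO CYP1B1 cells and 1.44 and 2.20 CPM in SW480 shNT cells. RKO control cells, on the low side, had 0.686 and 0.701 CPM. The test thus sets unlike ranges of CYP1B1 side by side. Of the 8 members, 4 passed, 3 above 0 and 1 below, and over all genes 42.6% passed, 21% above 0 and 21.6% below. The difference was 0.98 for KRT8 (SE 0.10, edgeR adjusted p = 1.85e-05), and it passed under all 17 alternatives. It was 0.28 for KRT18 (SE 0.09, edgeR adjusted p = 0.0222), passing under 11 of 17 alternatives. The losses of the KRT18 call included the fits without RKO control replicate 2, either SW480 shNT library or either SW480 shCYP1B1 library. The difference was -1.96 for KRT19 (SE 0.47, edgeR adjusted p = 0.00619), where the RKO side rests on at most 33 counts a library. Without RKO control replicate 1 it was -1.09 and did not pass. It was 2.03 for KRT14 (SE 0.75, edgeR adjusted p = 0.0487) and 0.55 without RKO CYP1B1 replicate 2 (adjusted p = 0.328). The KRT14 call was lost without any of the other libraries but RKO CYP1B1 replicate 1 (adjusted p between 0.0687 and 0.171), with library totals (0.0566), without the filter (0.0513) and in each limma fit (0.158 to 0.269), and it passed under 5 of 17 alternatives. For KRT13 the changes ran the same way relative to CYP1B1, higher in the CYP1B1-high cells of both lines, and the difference of 0.78 (SE 0.65) did not pass (edgeR adjusted p = 0.369), although it did without RKO CYP1B1 replicate 1 (1.35, adjusted p = 0.00208).

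The balance of type I and type II transcript shifted within each line. Over the 9 genes, the ratio of summed type I to summed type II FPKM was 2.69 and 3.21 in RKO CYP1B1 cells and 3.98 and 4.35 in RKO control cells. It was 1.67 and 1.69 in SW480 shCYP1B1 cells and 1.92 and 1.89 in SW480 shNT cells. In neither line did the groups overlap, and in both the manipulated cells had the lower ratio. Over all 47 keratin genes counted the ratio was 2.37 and 2.35 in RKO CYP1B1 cells and 3.35 and 3.83 in RKO control cells. Over the same 47 genes the order in SW480 turned round, with 0.958 and 0.972 in shCYP1B1 cells and 0.826 and 0.804 in shNT cells; the wider sum includes KRT5.

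**Figure D4:**
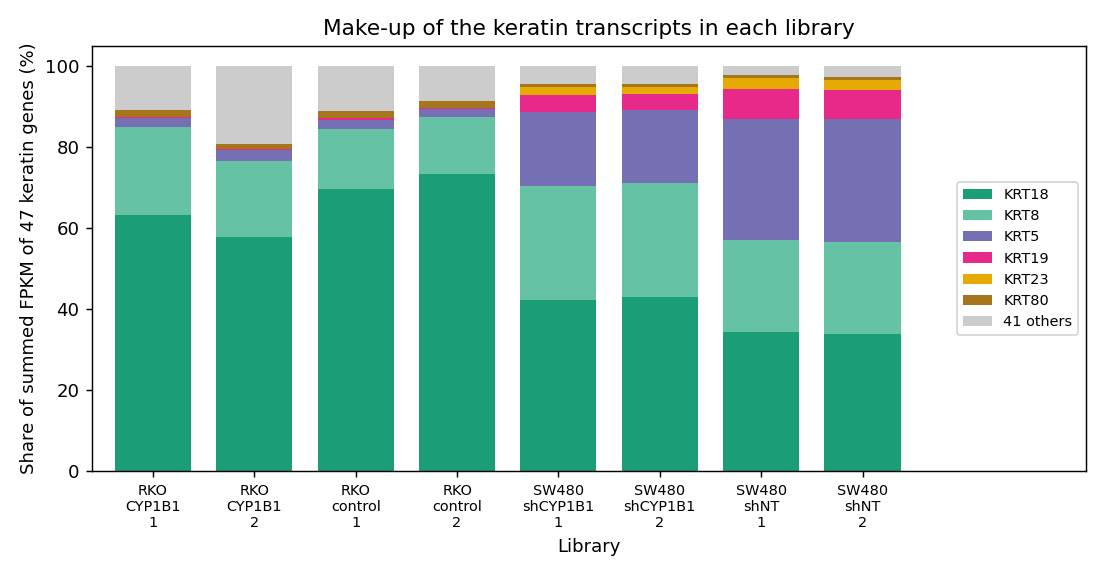
Share of the summed FPKM of 47 keratin genes taken by KRT18, KRT8, KRT5, KRT19, KRT23, KRT80 and the 41 others in each library (stacked bars, percent). KRT18 takes the largest share in every library, 63.3% and 57.9% in RKO CYP1B1 cells, 69.7% and 73.3% in RKO control cells, 42.2% and 42.9% in SW480 shCYP1B1 cells and 34.4% and 33.9% in SW480 shNT cells, and KRT5 is prominent in SW480 alone.

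KRT5, the type II basal keratin and usual partner of KRT14, was abundant in SW480 although KRT14 was not. It was at 791 and 786 FPKM in SW480 shCYP1B1 cells and at 1397 and 1386 FPKM in SW480 shNT cells, where it exceeded KRT8. It fell by 0.78 on the log2 scale in shCYP1B1 cells (SE 0.12, edgeR adjusted p = 3.25e-04), a call kept with each library left out in turn. On the FPKM scale KRT5 exceeded KRT14 by a factor of 225 in both SW480 shCYP1B1 libraries, and of 587 and 339 in the SW480 shNT libraries. In RKO, KRT5 was at 4.15 and 6.33 FPKM in CYP1B1 cells and at 3.91 and 3.42 FPKM in control cells, and its log2 fold change of 0.53 (SE 0.16, edgeR adjusted p = 0.0258) was 0.20 without RKO CYP1B1 replicate 2 and lost its call on removal of any library but RKO CYP1B1 replicate 1 (adjusted p up to 0.211).

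Of the 38 other keratin genes in the table, 26 could be tested. In RKO, 3 were higher in CYP1B1 cells (KRT3, KRT4 and KRT5) and none passed in the other direction, 11.5% called beside 27.6% of all genes; without RKO CYP1B1 replicate 1, 9 were higher and 1 was lower, and without RKO control replicate 2 only 1 was higher. KRT4, the usual partner of KRT13, had 36 and 46 counts in RKO CYP1B1 cells and 4 and 2 counts in RKO control cells, without overlap. Its log2 fold change was 3.68 (SE 0.68, edgeR adjusted p = 0.00246), and unlike KRT13 it differed little between the 2 CYP1B1 libraries, with a gap of 0.39. KRT3 had 6 and 19 counts in RKO CYP1B1 cells and 0 in both RKO control libraries, and its call was lost without either control library (adjusted p up to 0.0838).

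In SW480, 5 of the 26 were higher in shCYP1B1 cells and 3 were lower, 30.8% called beside 50.6% of all genes. KRT81 and KRT86, type II keratins of hair, were higher by 1.97 (SE 0.12, edgeR adjusted p = 3.81e-07) and 2.15 (SE 0.16, edgeR adjusted p = 1.37e-06). KRT81 was at 93.6 and 89.6 FPKM in shCYP1B1 cells and at 23.9 and 24.3 FPKM in shNT cells, and KRT86 at 8.82 and 9.12 FPKM in shCYP1B1 cells and at 1.95 and 2.20 FPKM in shNT cells. These genes overlap, and 44.6% of the KRT81 windows and 40.5% of the KRT86 windows occur in other transcripts, mostly in each other, so their counts are not independent. KRT74, a keratin of the inner root sheath of hair, was higher by 1.40 (SE 0.11), KRT39 by 2.57 (SE 0.65) and KRT79 by 2.67 (SE 0.79), the last from 18 and 38 counts in shCYP1B1 cells against 7 and 2 in shNT cells and lost without shNT replicate 2 or shCYP1B1 replicate 2 (adjusted p up to 0.128). KRT75, a type II keratin of the hair follicle, was lower by -2.39 (SE 0.29), and KRT36, a hair keratin, had 2 and 0 counts in shCYP1B1 cells against 38 and 57 in shNT cells.

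**Figure D5:**
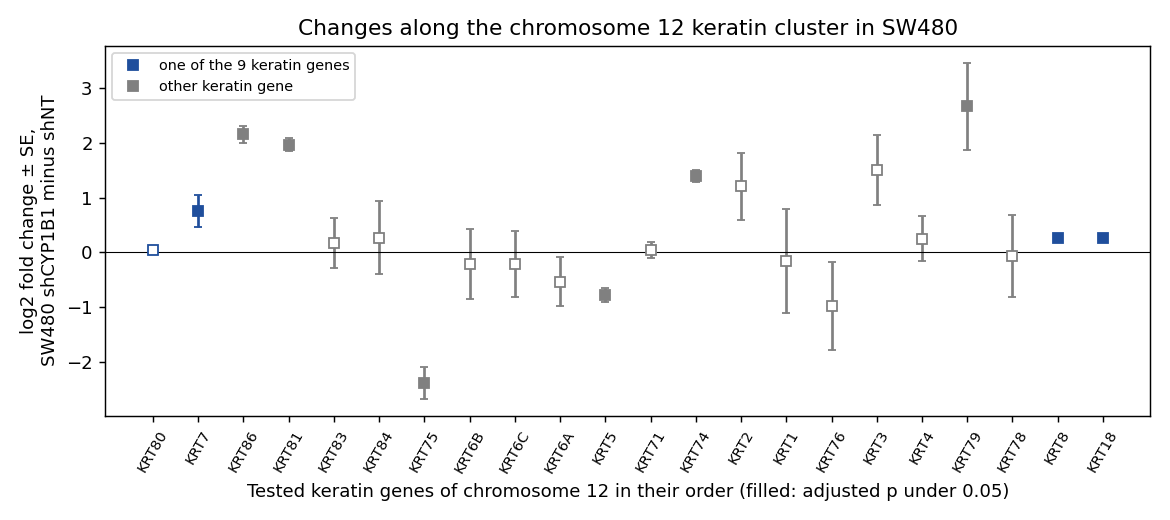
Log2 fold change with its standard error (SW480 shCYP1B1 minus shNT) of the 22 tested keratin genes of chromosome 12, in their order along the chromosome; filled symbols have an edgeR adjusted p under 0.05, and coloured symbols are 4 of the 9 keratin genes described. On this chromosome, 7 of the 22 genes were higher and 2 lower, where 25.3% of all genes tested were called in each direction. The higher ones were KRT7, KRT86 and KRT81, which lie side by side, KRT74 and KRT79, and KRT8 and KRT18 at the far end. The lower KRT75 and KRT5 lie between KRT81 and KRT74. The KRT7, KRT79, KRT8 and KRT18 calls were lost when certain single SW480 libraries were left out.

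Genes of proteins that anchor or bundle keratin filaments included calls in both directions. Of 20 genes, 6 were higher and 4 lower in RKO CYP1B1 cells, 50% called beside 27.6% of all genes, with a median log2 fold change of 0.11. SFN, an adaptor that binds phosphorylated KRT18, was higher by 0.80 (SE 0.09, edgeR adjusted p = 1.53e-04), whereas DSP, which ties keratin to desmosomes, fell by 0.61 (SE 0.09, edgeR adjusted p = 5.92e-04) and the desmosomal cadherin gene DSG2 fell by 0.43 (SE 0.06). In SW480 shCYP1B1 cells, 4 were higher and 8 lower, 60% called beside 50.6% of all genes, with a median of -0.04. PKP2, a desmosomal plaque gene, was higher by 1.00 (SE 0.08) and ITGB4, a hemidesmosome integrin, by 0.47 (SE 0.09). FAM83H, which recruits casein kinase to keratin filaments, fell by 1.29 (SE 0.14), PKP3 by 0.98 (SE 0.08), DSG2 by 0.62 (SE 0.07) and SFN by 0.60 (SE 0.09). These named calls held with each library left out in turn. Every other RKO call among these 20 genes was lost on removal of at least 1 library, as were some of the other SW480 calls.

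Other intermediate filament genes were set beside the keratins. Of 11 tested, 4 were higher and none lower in RKO CYP1B1 cells (36.4% called, beside 27.6% of all genes), with a median of 0.42: the lamin genes LMNA by 0.92 (SE 0.08), LMNB1 by 0.80 (SE 0.10) and LMNB2 by 0.42 (SE 0.10), and NES by 0.49 (SE 0.07). The LMNB2 call was lost without either RKO control library (adjusted p up to 0.113). In SW480 shCYP1B1 cells 4 were higher and 3 lower (63.6% called, beside 50.6% of all genes), with a median of 0.44. VIM, the vimentin of mesenchymal cells, was higher by 0.81 (SE 0.10, edgeR adjusted p = 5.28e-05) and DES by 0.84 (SE 0.14). In these cells KRT19, KRT23 and KRT5 were lower and KRT8 and KRT18 were higher. The 3 lower genes were LMNB1 at -0.38 (SE 0.10), LMNB2 at -0.31 (SE 0.10) and NES at -0.21 (SE 0.06), all called higher in RKO CYP1B1 cells. Their SW480 calls were lost without SW480 shNT replicate 2 or shCYP1B1 replicate 2.

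Transcription factors of epithelial and squamous cells were also counted. Of 23 tested, 7 were lower and none higher in RKO CYP1B1 cells (30.4% called, beside 27.6% of all genes), with a median of -0.30. KLF5, a factor of proliferating intestinal and squamous epithelium, fell by 0.63 (SE 0.09, edgeR adjusted p = 4.46e-04). In SW480 shCYP1B1 cells 11 were higher and 5 lower (69.6% called, beside 50.6% of all genes), with a median of 0.29. GATA6, an endodermal factor, was higher by 3.39 (SE 0.19), SNAI1 by 1.29 (SE 0.12), ZEB1 by 1.02 (SE 0.09) and JUN by 0.91 (SE 0.09), while the intestinal factors CDX2 and SOX9 fell by 0.86 (SE 0.09) and 0.54 (SE 0.09). The summed level of the 9 colon markers was 126 and 121 CPM in SW480 shCYP1B1 cells and 273 and 269 CPM in SW480 shNT cells, where EPCAM, VIL1, CDX2 and MUC2 fell and GPA33 was higher in shCYP1B1 cells; the MUC2 call was lost without SW480 shNT replicate 1, shNT replicate 2 or shCYP1B1 replicate 1 (adjusted p up to 0.0742), and the GPA33 call without shNT replicate 1 or shCYP1B1 replicate 1 (adjusted p up to 0.0708). The part of this shift in the keratin values was not tested.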

How the data were processed

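RNA of RKO and SW480 cells was extracted with TRIzol and made into libraries with a stranded mRNA kit, per the labels' protocols. The authors deposited raw read counts per gene and FPKM per gene for the same 8 libraries. Reads were placed on GRCh38.p13, per the submitters' processing notes. Which aligner, counter, annotation and strand setting were used is not given in the sources used here. Deposited FPKM equals count divided by library total and by 1 length per gene, for example 1988 bp for KRT8. The length is constant across libraries, so a shift between isoforms would not be seen.

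Groups and replicate numbers came from the sample titles. Genes were filtered with filterByExpr by group in edgeR 4.0.16 (minimum count 10, minimum total 15), leaving 14157 of 16829 genes and 8 of the 9 keratins. Library sizes were scaled with TMM, and a quasi-likelihood model with a term for each group was fitted to the 8 libraries together in R 4.3.3. Benjamini-Hochberg adjustment ran over every tested gene, calls were made at 0.05, and the SE is the log2 fold change divided by the square root of F. Fitted log2 fold changes of low genes depend on a prior count. No permutation test was run, since 2 libraries against 2 cannot pass the threshold.

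Alternatives were RLE scaling, library totals, no filter, 1 CPM in 4 libraries, DESeq2 1.42.0, limma 3.58.1 on log2(FPKM + 1) or log2(FPKM + 0.1), each line alone, a block for the replicate number, and removal of single libraries. A group reduced to 1 library then borrows its spread from the others. Counting intervals are exact Poisson or binomial intervals at 95%. Positions and sequences came from GENCODE release 29 on GRCh38.

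All 9 keratins are named, with every other keratin passing the test within a line and, of each further list, at most 4 genes each way per comparison, those with the smallest p. The keratins and lists were chosen with earlier results of these data known, so none is independent support. Some genes of the lists are not reported here by name, although counts and sums include them.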

Additional observations from a re-analysis of the deposited data

Results flagged for a closer look

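For 4 of the 8 tested keratin genes the CYP1B1-high minus CYP1B1-low change differed between the lines by the test of that difference in edgeR. Over all genes tested, 42.6% passed the same test. The CYP1B1-high minus CYP1B1-low change spans a far wider range of CYP1B1 in RKO than in SW480. On the log2 scale, the RKO change minus the SW480 change was 0.98 for KRT8, which was higher in RKO CYP1B1 cells than in RKO control cells and also higher in SW480 shCYP1B1 cells than in SW480 shNT cells. It was 0.28 (0.279) for KRT18, which moved in SW480 and did not pass the test in RKO. It was -1.96 for KRT19, with few counts in RKO, and 2.03 for KRT14, where RKO CYP1B1 replicate 2 stood apart. The KRT14 call passed under 5 of 17 alternatives and the KRT18 call under 11 of 17. The causes were not tested.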

How the results depend on the processing

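Over 8 refits that each left out 1 library, the count of genes called in RKO ranged from 1769 to 5621, in SW480 from 5132 to 8743, between the lines from 9759 to 11605 and in the difference of effects from 4600 to 7146. Over the same refits the count of keratins called ranged from 2 to 4 in RKO, from 2 to 6 in SW480, from 6 to 8 between the lines and from 2 to 5 in the difference of effects. With the RKO libraries alone, 2294 genes and 1 keratin were called in RKO. Limma on log2(FPKM + 1) without a filter also called 1 keratin in RKO, and limma on log2(FPKM + 0.1) called 3 keratins in SW480. KRT18 in RKO changed sign, to -0.00739 with library totals alone, to -0.00822 with limma on log2(FPKM + 1) with or without a filter and to -0.00829 with a pseudocount of 0.1. With 1 library left out, KRT18 in RKO lay between -0.045 and 0.0633, KRT14 in SW480 between -0.17 and 0.60, and KRT13 in the difference of effects between -0.15 and 1.88. KRT23 in the difference of effects was -0.45 with limma on log2(FPKM + 1), with and without the filter (adjusted p = 0.00667 and 0.0066), and -0.0502 with a pseudocount of 0.1; the pseudocount shrinks the change of its few RKO counts. Over all members and comparisons, leaving out 1 library kept direction and call in 215 results, and other settings in 272. Calls were lost in 35 and 23 and gained in 3 and 1, and direction turned in 3 and 7. The type I to type II ratio over 47 keratins in place of 9 averaged 2.36 in RKO CYP1B1, 3.59 in RKO control, 0.965 in SW480 shCYP1B1 and 0.815 in SW480 shNT cells. Same-numbered replicates did not deviate together (r = -0.00532 in RKO and -0.0115 in SW480 over 14157 genes), so the numbers are not shown to pair libraries. With the replicate block, 3810, 6960, 10768 and 5868 genes and 3, 6, 8 and 4 keratins were called in RKO, SW480, between the lines and in the difference of effects, and no count of keratins changed. RLE scaling moved the median of all genes between the lines to 0.12, against 0.08 with TMM. Counts of KRT19, KRT20 and KRT23 in RKO limit what could be seen there.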

Other observations

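The genes whose pattern most resembled each keratin were found by Pearson r of log2 CPM, taken as deviations from the mean of the line, over 8 libraries and among 11086 genes averaging at least 5 CPM (11087 for KRT14, which is itself below that level). KRT8 was nearest to ACTG1, the gamma actin gene, at r = 0.995 and to PTMA at 0.994. KRT18 was nearest to COX10 and IL27RA, both at 0.985, and KRT19 to CELSR1 at 0.987 and PLP2 at 0.976. KRT7 was nearest to KLF15 at 0.987 and RPL28 at 0.973, and KRT23 to PLPP2 at 0.997 and GGH at 0.991. KRT80 was nearest to UBXN10 at 0.984 and RUNX3 at 0.981, KRT13 to ERVMER34-1 at 0.985 and ATP6V0E1 at 0.983, and KRT14 to MAST3 at 0.981 and CHORDC1 at 0.979. With 4 groups of 2 libraries, each r reflects the change within each of 2 lines plus the spread between replicates, and the libraries share their depth and processing.

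Among the 8 members themselves the same measure was 0.37 for KRT8 with KRT18, 0.71 for KRT13 with KRT14, 0.74 for KRT8 with KRT80 and -0.57 for KRT18 with KRT19. The value for the partner genes KRT8 and KRT18 lay below that of KRT8 with ACTG1, which was picked as the highest of all candidates.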
